A study of Homo sapiens with 8 samples.

Results

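The genes described here are the integrins, the paired alpha and beta receptors that hold cells to the matrix, and the core proteins of focal adhesions, the structures that link integrins to actin. Of 35 such genes, 29 had a row of their own in the array table, out of 14271 genes that did. A gene was taken where the platform annotation gave a row exactly 1 gene symbol, with no threshold on measured values. The other 6 were not assigned a value because their rows also carry other symbols: ITGA1 (with PELO), ITGA4 (CERKL), ITGAE (HASPIN), TLN1 (CREB3), TLN2 (MIR190A) and LIMS1 (LIMS3 and 2 locus names).

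The samples were PNT2 cells, an established immortalized line of human prostatic epithelium, grown in a single medium. In 4 samples (siESRP) both ESRP1 and ESRP2, epithelial RNA-binding proteins that control splicing, were knocked down with short interfering RNA. In the other 4 (siGFP, the control) the short interfering RNA was against GFP (green fluorescent protein). Total RNA of each sample was hybridized to 1 Affymetrix human exon array. Whether the 4 samples of a group were separate cultures is not stated, so the p-values rest on a spread that could be only technical. All cells came from 1 line, and the transient knockdown left part of the ESRP1 signal. ESRP1 was 2232, 2527, 2617 and 2379 on the siGFP arrays and 568, 499, 660.2 and 599 on the siESRP arrays. The row that ESRP2 shares with NFATC3 was 546, 528, 486 and 563 in siGFP and 151, 163, 109 and 171 in siESRP. How much of the remaining signal was ESRP2 cannot be told from a shared row. Array medians ran from 233 to 286 in the deposited intensities, and Spearman correlations after normalization were 0.987 to 0.995 within groups and 0.978 to 0.985 between them.

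An integrin is a dimer of 1 alpha and 1 beta subunit, and the pairing sets the ligand: collagens, laminins, or proteins with an RGD motif such as fibronectin, vitronectin and the latent form of TGF-beta. Talins and kindlins bind the beta tail and switch the receptor on. ILK, PINCH and parvin form a complex behind them, focal adhesion kinase (PTK2) and its partners signal, and vinculin, zyxin and tensins connect the site to actin. In prostatic epithelium, basal cells rest on laminin through ITGA6 paired with ITGB4 and through ITGA3 paired with ITGB1.

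Many of the measured adhesion genes differed between the groups, most of them upward: of 29, 11 rose, 3 fell and 15 did not pass. The test was limma on log2(intensity + 1) after quantile normalization, with p-values adjusted by Benjamini-Hochberg across the 18495 rows and called under 0.05. Over all rows 20.2% passed, 10.9% higher and 9.31% lower, against 48.3% of the adhesion genes. The genes were chosen with earlier results of these data known, so these shares are a description and not a test. The median log2 difference (siESRP minus siGFP) was 0.14 over the 29 genes and −0.02 over all rows. Brightness differs between these: 22 of the 29 had both group means of at least 50. Of these 22, 63.6% passed, against 25.8% of all rows with such means. The 7 dim genes, ITGA7, ITGA8, ITGA9, ITGA10, ITGA11, ITGB3 and ITGB7, had a group mean under 50, near the range where signal and background cannot be told apart, and 0 passed in limma (1 of the 7, ITGA10, had an unadjusted p under 0.05, also by the exact permutation test). In 16 of the 29 genes the groups did not overlap, 12 with siESRP above and 4 with siESRP below, where 24.6% of all rows were without overlap, 12.6% above and 12% below. With a change of at least 1.5-fold as well, 3 genes were called (ITGA3, ITGB5 and ITGB8). That is 10.3% of the 29, against 7.08% of all rows, so the shares lay closer together at this cut. For any gene whose groups do not overlap, the exact two-sided permutation p is 0.0286, the smallest that 4 arrays against 4 allow. In whole-culture RNA, fewer cells of a type and less RNA per cell cannot be told apart.

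**Figure D1:**
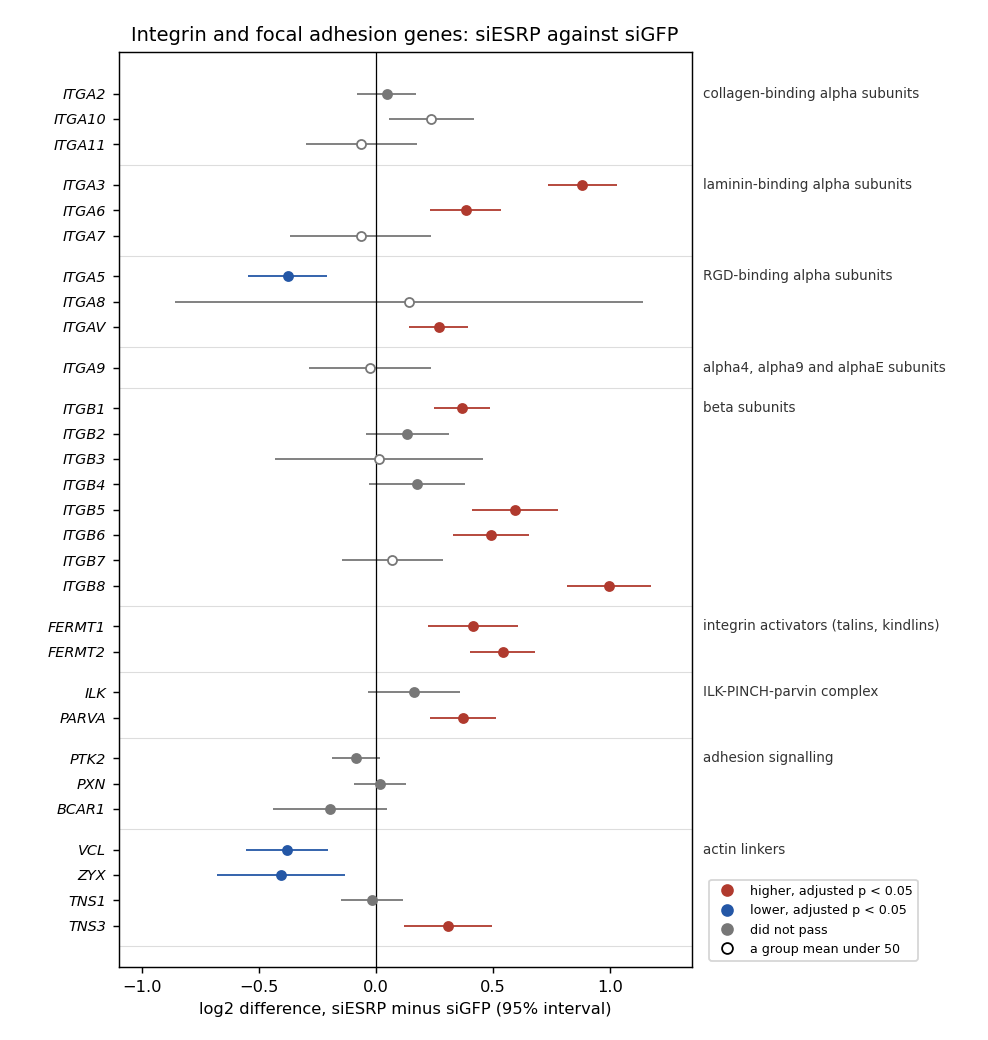
Log2 difference (siESRP minus siGFP, x axis) with its 95% interval from limma for each of the 29 genes, grouped by role, with 4 arrays per group. Red genes are higher and blue genes lower at an adjusted p under 0.05, grey genes did not pass, and open circles have a group mean under 50. The highest difference is that of ITGB8 (1.00), and the 3 lower genes are ITGA5, VCL and ZYX.

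The promoters of the genes that moved differ in sequence, and 4 are shown to set 2 genes that rose beside 2 that fell. The 4 were picked by hand and not by a rule, so they do not stand for either direction. Sequences are from RefSeq (GRCh38.p14), which matched 20 of the 29 genes, and cover the 250 bases before the annotated start, each 5′ to 3′ on the strand of the gene. Capitals mark matches on either strand to 4 motifs: the AP-1 type TGANTCA, the TEAD type GGAATG, the GC box GGGCGG, and the CArG box known for binding serum response factor, which was added to the search after the expression values had been seen. No matches overlap in these 4 windows.
ITGB8 (chr7:20330650-20330899, plus strand, rose): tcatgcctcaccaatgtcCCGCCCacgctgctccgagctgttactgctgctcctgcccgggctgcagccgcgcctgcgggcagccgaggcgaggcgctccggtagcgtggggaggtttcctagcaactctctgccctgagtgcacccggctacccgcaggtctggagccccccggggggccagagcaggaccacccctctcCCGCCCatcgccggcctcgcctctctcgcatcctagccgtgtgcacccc
ITGB6 (chr2:160200273-160200522, minus strand, rose): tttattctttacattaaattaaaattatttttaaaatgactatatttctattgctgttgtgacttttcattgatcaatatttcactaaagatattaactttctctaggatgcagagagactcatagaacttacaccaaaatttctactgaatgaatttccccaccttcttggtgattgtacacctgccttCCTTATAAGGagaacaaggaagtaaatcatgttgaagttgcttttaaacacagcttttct
ITGA5 (chr12:54419267-54419516, minus strand, fell): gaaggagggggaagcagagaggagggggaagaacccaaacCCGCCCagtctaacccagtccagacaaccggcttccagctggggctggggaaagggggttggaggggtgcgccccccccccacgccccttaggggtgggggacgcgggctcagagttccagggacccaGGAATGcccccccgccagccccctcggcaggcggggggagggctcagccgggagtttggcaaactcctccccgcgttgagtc
VCL (chr10:73997866-73998115, plus strand, fell): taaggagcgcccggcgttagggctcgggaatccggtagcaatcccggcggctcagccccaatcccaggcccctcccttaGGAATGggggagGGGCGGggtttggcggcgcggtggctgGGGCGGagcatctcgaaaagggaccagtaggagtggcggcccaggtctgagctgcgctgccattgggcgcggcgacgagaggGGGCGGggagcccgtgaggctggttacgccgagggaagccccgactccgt
The ITGB6 window had a GC content of 30%, with 1 CArG match and no GC box. The windows of ITGB8, ITGA5 and VCL had 71.2%, 70% and 70.4% GC, with 2, 1 and 3 GC boxes, and those of ITGA5 and VCL also held 1 TEAD type match each. Among genes that rose, 8 of 11 had windows, 15 in all because some genes have several starts. A GC box was in 7 of these 15 windows, in all 3 windows of the genes that fell and in 11 of 18 windows of the genes that did not pass, against 42.6% of all 35116 windows. The TEAD type motif was in 1 of 15, 2 of 3 and 4 of 18 windows, against 11.9% of all windows. Among windows not shown, ITGB1, which rose, had a match and ZYX, which fell, had none. The AP-1 type motif was in 0 of 15, 0 of 3 and 1 of 18, against 6.57%, and the CArG box in 1 of 15, 0 of 3 and 0 of 18, against 1.16%. These matches describe the letters only, and the arrays measured no binding.

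Laminin-binding alpha subunits rose. Of 3 measured, ITGA3 and ITGA6 rose and the dim ITGA7 did not pass. ITGA3 was 1432, 1346, 1349 and 1381 on the siGFP arrays and 2565, 2805, 2322 and 2492 on the siESRP arrays. Every siESRP array was far above every siGFP array. The means were 1377 ± 40.0 and 2546 ± 201 (SD, n = 4 each), a 1.84-fold increase with a log2 difference of 0.88 ± 0.06 SE (limma adjusted p = 0.000261). ITGA6 was 2011, 2230.1, 2436 and 2096 in siGFP and 2874, 2793, 2919 and 2832 in siESRP. Its siESRP arrays lay close together, above a more spread control group. The increase was 1.30-fold (log2 difference 0.38 ± 0.06 SE, limma adjusted p = 0.0069), and the call ended on the deposited scale without normalization (adjusted p = 0.122). Both genes are known to make alternatively spliced cytoplasmic tails, which a gene-level row does not tell apart. ITGA7, the laminin receptor of muscle, had means of 40.8 and 39.3 (adjusted p = 0.785).

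The collagen-binding alpha subunits did not pass: 0 of 3 measured were called by limma, and 1 (ITGA10) had an unadjusted p under 0.05. ITGA2, the collagen receptor of epithelia and platelets, was 2988, 3143, 3352 and 2912 in siGFP and 3229.8, 3119, 3252 and 3175 in siESRP. These ranges overlap, and the log2 difference was 0.05 with a 95% interval of −0.08 to 0.17 (adjusted p = 0.612). ITGA10, best known from cartilage, had means of 43.7 and 51.6, with each siESRP array above each siGFP array (adjusted p = 0.0729). ITGA11, a collagen receptor of fibroblasts, had means of 28.5 and 27.5 (adjusted p = 0.733).

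Among alpha subunits that read the RGD motif, ITGAV rose and ITGA5 fell. ITGA5, which pairs with ITGB1 as the classical fibronectin receptor, was 1517, 1514, 1412 and 1467 in siGFP and 1119.8, 1301, 1069 and 1072 in siESRP. The groups did not overlap, with siESRP replicate 2 nearest the control. The decrease was 1.30-fold (log2 difference −0.38 ± 0.07 SE, limma adjusted p = 0.0111), and on the deposited scale the adjusted p was 0.0855. ITGAV, the shared alpha partner of several RGD-binding beta subunits, was 1510.1, 1504, 1622 and 1422 in siGFP and 1823, 1830.4, 1906 and 1733 in siESRP. All siESRP arrays were above all siGFP arrays. The increase of 1.20-fold (log2 difference 0.27 ± 0.05 SE, limma adjusted p = 0.0131) was the smallest among the genes that rose, and its call ended on the deposited scale (adjusted p = 0.315) and with median scaling (0.116). ITGA8, which pairs with ITGB1, was at background with means of 7.06 and 7.25. ITGA9, a receptor for tenascin and other ligands, had means of 44.7 and 43.8, and neither passed (adjusted p = 0.869 and 0.923).

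The beta subunits gave 4 increases and no decrease among 8. ITGB8, which with ITGAV binds latent TGF-beta, rose most. It was 650.2, 803, 767 and 727 in siGFP and 1363, 1459, 1550.1 and 1498 in siESRP. The lowest siESRP array was well above the highest control. The means were 737 ± 65.5 and 1468 ± 79.1 (SD, n = 4 each), a 1.99-fold increase (log2 difference 1.00 ± 0.08 SE, limma adjusted p = 0.000336). ITGB6, an epithelial partner of ITGAV that also activates TGF-beta, was 867, 922, 946 and 803 in siGFP and 1356, 1203, 1215 and 1200.2 in siESRP. Within siESRP, replicate 1 stood above the other 3 arrays, and the groups did not overlap. Its increase was 1.41-fold (log2 difference 0.49 ± 0.07 SE, adjusted p = 0.00339). ITGB5, which with ITGAV binds vitronectin, was 1464, 1278, 1432 and 1194 in siGFP and 2060.1, 1877, 2096 and 2055 in siESRP, again without overlap. It rose 1.51-fold (log2 difference 0.59 ± 0.08 SE, adjusted p = 0.00254). On the deposited scale the calls of ITGB5 and ITGB6 ended, with adjusted p of 0.0926 and 0.103.

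ITGB1, the partner of most of the alpha subunits above, was 4332, 4639, 4443 and 4681 in siGFP and 5955, 6207, 5576 and 5621 in siESRP. The groups were fully apart. The increase was 1.29-fold (log2 difference 0.37 ± 0.05 SE, limma adjusted p = 0.0033). ITGB4, the hemidesmosomal partner of ITGA6, was 837, 723, 729 and 804 in siGFP and 782, 940.5, 820.0 and 954 in siESRP. These ranges overlap, so the log2 difference of 0.17 (95% interval −0.03 to 0.38, adjusted p = 0.221) was not separated from the replicate spread. ITGB2, the leukocyte beta subunit, had means of 58.1 and 64.0 (adjusted p = 0.274). The dim ITGB3 and ITGB7 had means of 22.5 and 22.4, and of 30.9 and 32.5. The log2 differences of ITGB2, ITGB3 and ITGB7, like those of ITGA8 and PXN, are above 0 as normalized here and below 0 on the deposited scale and after median scaling.

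**Figure D2:**
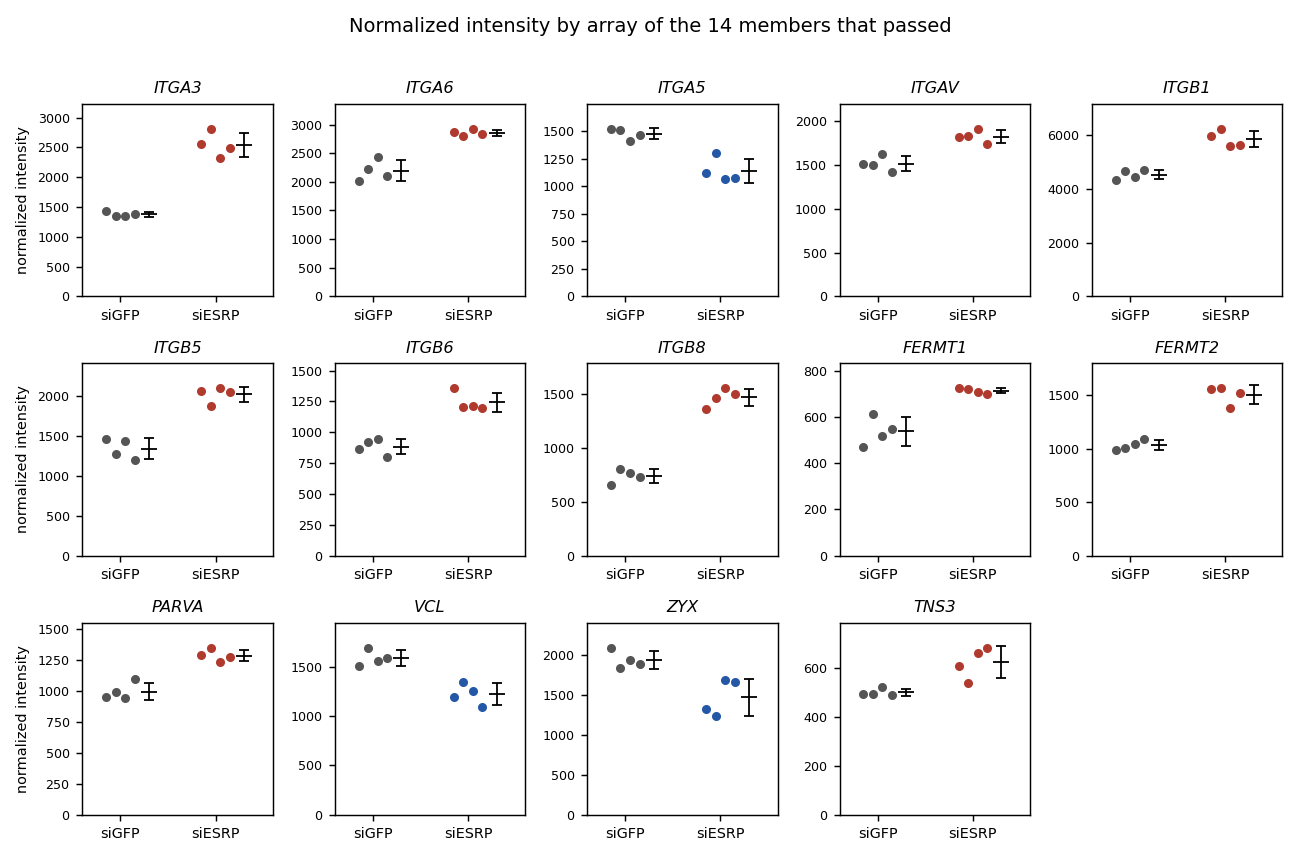
Quantile-normalized intensity (y axis, linear from 0, a scale of its own in each panel) on each of the 4 siGFP and 4 siESRP arrays for the 14 genes that passed. Dots are arrays, and the bar beside them is the mean ± SD. In every panel the groups do not overlap, and ITGA5, VCL and ZYX are the 3 in which siESRP lies lower.

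The ratio of 2 partner genes within an array is given for 10 pairs. The pairs were chosen after the values of their genes had been seen, so the ratios are a description with no test. Relative to ITGB1, ITGA3 gained 0.52 ± 0.05 on the log2 scale (SE, 4 arrays per group), while ITGA5 fell by 0.75 ± 0.05 and ITGA2 by 0.32 ± 0.07. For ITGA6 against ITGB1 the change was 0.02 ± 0.08 with overlapping groups. ITGAV fell by 0.73 ± 0.08 relative to ITGB8, by 0.33 ± 0.06 relative to ITGB5 and by 0.22 ± 0.05 relative to ITGB6. In these 6 pairs, ITGA6/ITGB1 aside, the groups did not overlap. ITGA6 against ITGB4 changed by 0.21 ± 0.14, FERMT2 against FERMT1 by 0.13 ± 0.09 and PARVA against ILK by 0.21 ± 0.09, each with overlap.

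**Figure D3:**
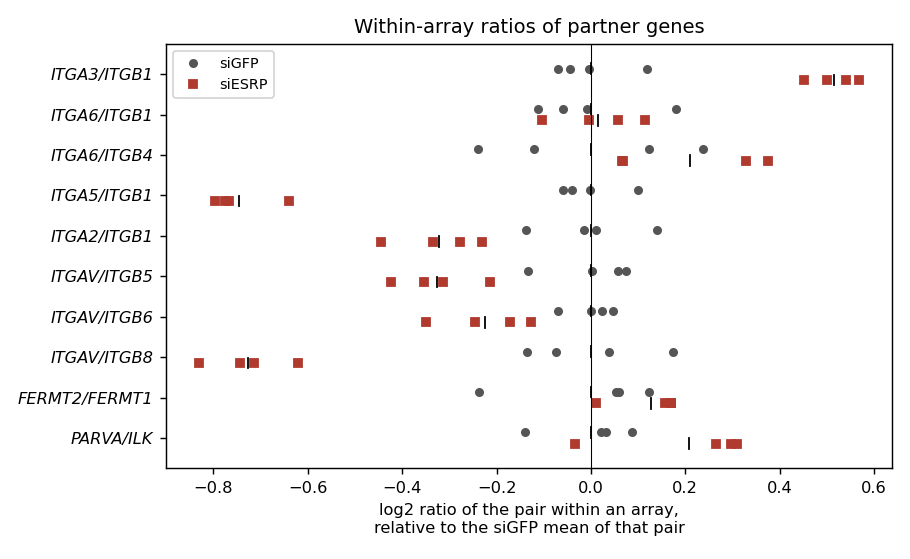
Log2 ratio of the 2 genes of a pair within each array (x axis), set relative to the siGFP mean of that pair. Circles are the 4 siGFP arrays, squares the 4 siESRP arrays and black ticks the group means. The groups are apart in 6 of the 10 pairs, to the right for ITGA3/ITGB1 and to the left for ITGA5/ITGB1, ITGA2/ITGB1 and the 3 pairs of ITGAV.

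Both measured integrin activators rose. FERMT2 (kindlin-2), the widely expressed kindlin, was 986, 1006, 1045 and 1094 in siGFP and 1557, 1563, 1377 and 1520.5 in siESRP. The groups were well apart, with an increase of 1.46-fold (log2 difference 0.54 ± 0.06 SE, limma adjusted p = 0.00117). FERMT1 (kindlin-1), the epithelial kindlin mutated in Kindler syndrome, was 469, 615, 519 and 547 in siGFP and 724, 721, 708 and 700.2 in siESRP. The siESRP arrays were within a narrow range above a spread control group, and the increase was 1.33-fold (log2 difference 0.41 ± 0.08 SE, adjusted p = 0.0123).

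In the complex of ILK with parvin, PARVA (alpha-parvin), which binds actin, was 951, 991, 947 and 1095 in siGFP and 1291, 1352, 1236 and 1275 in siESRP. Without overlap between the groups, it rose 1.30-fold (log2 difference 0.37 ± 0.06 SE, limma adjusted p = 0.0056). ILK itself, the pseudokinase at the centre of the complex, was 1782, 2092, 1790.0 and 1976 in siGFP and 2060.1, 2091, 2425 and 1989 in siESRP. Its ranges overlap, and the log2 difference of 0.16 had a 95% interval of −0.03 to 0.36 (adjusted p = 0.23).

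The 3 signalling proteins did not pass: 0 of 3 were called by limma and 0 had an unadjusted p under 0.05, while 1 (PTK2) had an exact permutation p of 0.0286. PTK2, focal adhesion kinase, was 2729, 2740.4, 2706 and 2717 in siGFP and 2663, 2682, 2475 and 2452 in siESRP. All 4 siESRP arrays were below the control arrays, 2 of them by little, and the log2 difference was −0.09 (95% interval −0.19 to 0.02, adjusted p = 0.23). PXN (paxillin), a scaffold that PTK2 phosphorylates, was 1752, 1771, 1659 and 1760.0 in siGFP and 1702, 1873, 1752 and 1699.9 in siESRP, with overlap (log2 difference 0.02, 95% interval −0.09 to 0.13). A second, dimmer PXN row had means of 202 and 205 (adjusted p = 0.958). BCAR1 (p130Cas), a scaffold downstream of PTK2, was 553, 593, 507 and 701 in siGFP and 474, 513, 510.0 and 548 in siESRP. Its highest control array set the wider spread, and the log2 difference was −0.19 (95% interval −0.44 to 0.05, adjusted p = 0.249).

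The proteins on the actin side went both ways. VCL (vinculin), which ties talin to actin under tension, was 1502, 1691, 1557 and 1591 in siGFP and 1196, 1348, 1251 and 1086 in siESRP. The highest siESRP array was below the lowest control, and the decrease was 1.30-fold (log2 difference −0.38 ± 0.07 SE, limma adjusted p = 0.0125). ZYX (zyxin), which helps repair actin bundles at adhesions, was 2086, 1827, 1935 and 1879 in siGFP and 1317, 1229.5, 1678 and 1656 in siESRP. All siESRP arrays were lower, in a wide range with replicates 1 and 2 lowest. The decrease was 1.32-fold (log2 difference −0.41 ± 0.12 SE) at an adjusted p of 0.0491, just inside the threshold. The ZYX call ended when any of siGFP replicates 1, 2, 3 or 4 or siESRP replicates 1 or 2 was left out (adjusted p of 0.115, 0.0774, 0.1, 0.0939, 0.121 and 0.089), on the deposited scale (0.201) and after median scaling (0.0523).

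TNS3 (tensin-3), which binds beta tails at older adhesions, was 494, 493, 520.2 and 489 in siGFP and 607, 536, 662 and 682 in siESRP. The groups did not overlap, although siESRP replicate 2 was close to the highest control. The increase was 1.24-fold (log2 difference 0.31 ± 0.08 SE, limma adjusted p = 0.0346). This call ended when any of siGFP replicates 1 to 4 or siESRP replicates 1, 3 or 4 was left out (adjusted p from 0.0606 to 0.0849), on the deposited scale (0.208) and after median scaling (0.065). TNS1 (tensin-1), common in fibroblasts and muscle, had means of 53.7 and 53.1 (adjusted p = 0.893).

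Other genes of the pathway (6 lists, 116 genes) were called at a share nearer to all rows than to the adhesion genes. Of 95 measured, 12 rose and 12 fell, which is 25.3%, against 20.2% of all rows. Among rows with both means of at least 50 the share was 25.8%. That base is unlike, because 14 of the 95 genes had a group mean under 50. The median log2 difference of the 95 was −0.07. The split depended on the scaling: 3 rose and 9 fell on the deposited scale, and 7 rose and 15 fell after median scaling, where the adhesion genes had 6 and 1, and 9 and 2. Among 20 measured soluble and matrix ligands, 3 rose and 3 fell. THBS2, a matricellular protein, rose 2.12-fold from 629 ± 22.4 to 1333 ± 24.0 (SD, n = 4 each), FBN1 (fibrillin-1) rose 1.51-fold and TGFBI, a TGF-beta-induced matrix protein, 1.20-fold. In the other direction, THBS1 (thrombospondin-1) fell 1.69-fold from 6349 ± 477 to 3759 ± 120.0, the growth-regulating matrix protein CCN2 1.59-fold and TNC (tenascin-C) 1.5-fold. FN1 (fibronectin), the ligand of ITGA5 with ITGB1, had means of 5649 and 5291 (adjusted p = 0.318).

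Of 14 integrin activity regulators, 1 rose and 3 fell. The tetraspanin CD9 rose 1.27-fold. DAB2, an endocytic adaptor that takes up integrins, fell 1.76-fold, SLC3A2 (the CD98 heavy chain, which binds beta tails) 1.44-fold and SHARPIN, an inhibitor of integrin activation, 1.23-fold. Among 30 kinases, adaptors and GTPase links, 5 rose: ASAP1 1.42-fold, the kinase FYN 1.31-fold, the adaptor SHC1 1.20-fold, the phosphatase PTPN12 1.20-fold and GIT2 1.12-fold. NEDD9, a relative of BCAR1, fell 1.73-fold from 1004 ± 92.9 to 582 ± 65.3 (SD, n = 4 each), and LIMS2, a PINCH protein, 1.42-fold. The count of 5 was between 2 and 4 when 1 array was left out. It was 2 without siGFP replicate 2 or siESRP replicates 1 or 4, and 3 without siGFP replicates 1 or 4 or siESRP replicate 2. Without siGFP replicate 4, 2 regulators rose. On the deposited scale 0 regulators rose and 1 fell. Of the kinases and adaptors, 1 rose and 3 fell on that scale, and 2 rose and 4 fell after median scaling, so decreases outnumbered increases on both.

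Of 23 other proteins on the actin side, 3 rose and 3 fell. CAV1 (caveolin-1) rose 1.58-fold, FHL2 1.41-fold and PDLIM1 1.23-fold. ACTN1 (alpha-actinin-1), the crosslinker of actin at adhesions, fell 1.27-fold from 4259 ± 123 to 3354 ± 124 (SD, n = 4 each). VASP and ENAH, which extend actin filaments and bind zyxin, fell 1.34-fold and 1.33-fold. ENAH is a reported splicing target of the ESRPs, and whether its lower row reflects less RNA or changed exon use was not tested. On the deposited scale, without normalization, limma called 0 of the 23 in either direction. Of 8 hemidesmosome partners only PLEC, DST and KRT14 had a row of their own, and KRT14 fell 2.06-fold. Other keratin genes resemble it in sequence, and whether its probes also read them was not tested. Without siGFP replicate 3 or siESRP replicate 2, 1 of the 3 also rose. The last list had 5 measured genes: ITGA2B, ITGAL, ITGAX, the integrin-beta-like ITGBL1 and FERMT3 (kindlin-3). Of these, 0 passed in limma and 3 had an unadjusted p under 0.05. ITGBL1, among those 3, was lower on every siESRP array (means of 445 and 400, limma adjusted p = 0.0877). Without siGFP replicate 2 or 4, 1 of the 5 genes passed as lower. ITGA2B, the platelet alpha subunit, was below 0 on average in both groups, and ITGAL and ITGAX of leukocytes had means under 50.

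**Figure D4:**
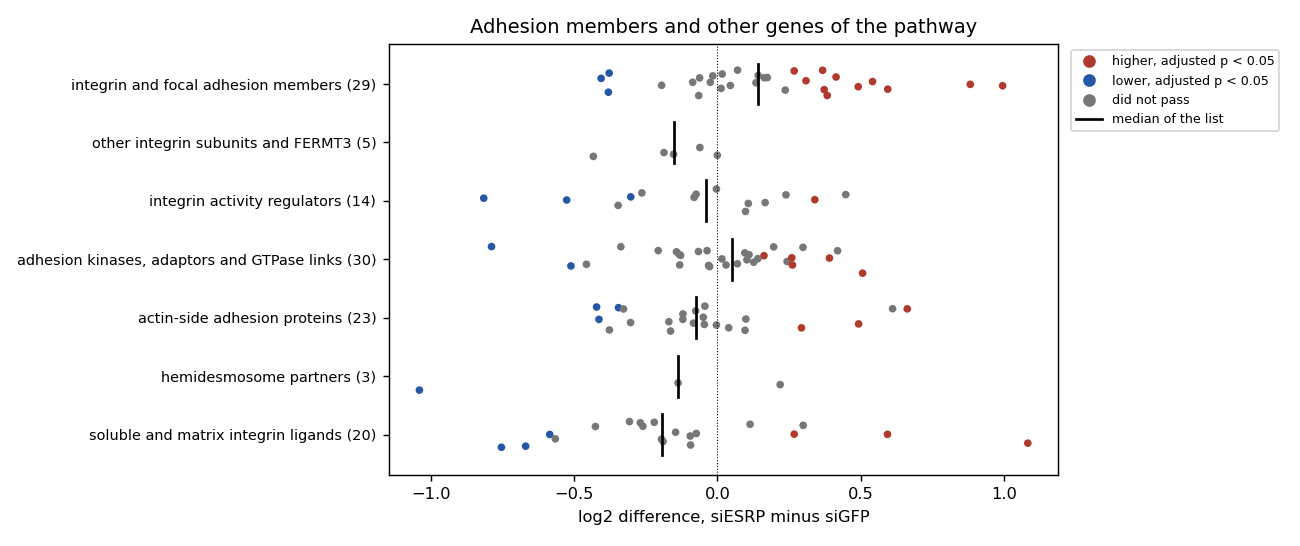
Log2 difference (siESRP minus siGFP, x axis) of each measured gene in the 29 integrin and focal adhesion genes and in 6 lists of related genes, with the number measured in brackets. Red and blue points passed at an adjusted p under 0.05, and the black bar is the median of the list. The adhesion genes have 11 red and 3 blue points, the other lists together 12 and 12, a split that became 3 and 9 on the deposited scale and 7 and 15 after median scaling.

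Markers of the labelled cell type were present. The summed intensity of 6 of 7 epithelial markers ran from 24445 to 26105 in siGFP and from 26759 to 28062 in siESRP, with CDH1, KRT18 and KRT19 passing as higher. Of the other 3, KRT7 was lower on every siESRP array, with means of 3700.2 and 3053 (limma adjusted p = 0.0587), and EPCAM (3386 and 3120.0) and KRT8 (6689.6 and 6964) overlapped. Levels of different probes cannot be set against each other, so the sums of the lists show only how each moved between the groups. The 5 endothelial markers summed to 316 to 376 in siGFP and 392 to 479 in siESRP, with CDH5 higher (241 and 324, adjusted p = 0.0333), TEK lower (30.2 and 22.1, 0.0118) and PECAM1 at 15.7 and 19.2. The 8 of 9 measured fibroblast and smooth muscle markers summed to 553 to 633 and 453 to 534, with COL1A1 lower (252 and 182, adjusted p = 0.00649) and LUM at 9.06 and 8.84. The 7 of 9 leukocyte markers summed to 348 to 382 and 261 to 351, with CSF1R lower (154 and 80.9, adjusted p = 0.00323) and PTPRC at 10.7 and 12.8. The 4 of 5 platelet markers summed to 347 to 420 and 259 to 431, and 0 passed in limma (1 of the 4, PPBP, had an unadjusted p under 0.05). The epithelial, endothelial and fibroblast sums moved with the groups, and their part in the adhesion results was not tested.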

How the data were processed

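The authors deposited 1 table of linear intensity values per gene-level row (18495 rows, 8 arrays), and no source used here gives their background correction, probe summary or scaling. Between 2.7% and 4.02% of values per array lie below 0. Quantile normalization of these linear values came first, then a floor at 0, then log2(value + 1). The floor had to be applied because values below 0 have no logarithm. All rows were tested with limma 3.58.1 (R 4.3.3), lmFit and eBayes, siESRP against siGFP, without covariates. Fold changes are on the log2(value + 1) scale and are not given where a group mean is under 50. The 95% intervals are limma's. A gene with several rows is represented by its brightest. For no gene was it tested whether a difference in its gene-level row reflects RNA amount or exon use. Genes were named from the platform annotation, updated through Entrez IDs. The number of arrays limits the precision.

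The genes, lists and tests were chosen with earlier results of these data known. All 29 measured genes are named, and of each other list the called genes. The partner pairs and the CArG motif were chosen after the values had been seen. The fit was tested on simulated data, where it found 81 of 100 2-fold changes and 46 of 100 1.5-fold changes. It also called 7 unchanged rows. Only 200 of the 18495 rows were changed there, all with a siGFP level above 100, whereas 3729 rows were called in the data. With fewer changed rows the Benjamini-Hochberg cut is stricter, so these shares are not the power of the real fit. They do not cover dim genes. A gene that did not pass can still have changed. Same-numbered siGFP and siESRP arrays were not paired by any label.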

Additional observations from a re-analysis of the deposited data

Results flagged for a closer look

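In 4 of the 58 groups of 4 arrays (29 genes in 2 groups), 1 array was so far from its nearest neighbour that the gap, as a share of the group's range, was above Dixon's 95% critical value. Chance gives about 1 in 20, or 2.9. ITGB6 in siESRP had replicate 1 high at 1356, against 1200.2 to 1215 on the other arrays (ratio 0.9), on the log2 scale used for the gap. PXN in siGFP had replicate 3 low at 1659, against 1752 to 1771 (0.837). ITGA9 in siESRP had replicate 4 high at 49.8, against 41.1 to 42.1 (0.874), near background. ITGB2 in siESRP had replicate 4 low at 55.6, against 65.6 to 67.9 (0.83). Of these genes only ITGB6 passed in limma, and without siESRP replicate 1 it still did.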

How the results depend on the processing

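Of the 14 genes that passed, 6 (ITGA3, ITGB1, ITGB8, FERMT2, PARVA and VCL) kept their call in every alternative of normalization, filter, pseudocount, variance model, array weights, replicate block and left-out array. The other 8 lost it in at least 1, and none of the 14 changed direction. The count of genes that rose, 11, was 6 on the deposited scale and 3 with at least 1.5-fold, and from 10 to 11 with 1 array left out. The count that fell, 3, was 1 on the deposited scale, 0 at an adjusted p under 0.01, 0 with at least 1.5-fold, and from 2 to 3 with 1 array left out. All rows called, 3729, were 1673 on the deposited scale, 1808 at an adjusted p under 0.01, 1309 with at least 1.5-fold, and from 2719 to 3793 with 1 array left out. With the replicate number as a block, 2292 rows were called, and 9 adhesion genes rose and 2 fell. FERMT1 (adjusted p = 0.0526), TNS3 (0.0787) and ZYX (0.102) lost their calls. No label says that the numbers pair the samples. Deviations of same-numbered arrays correlated at 0.0515, 0.0531, −0.181 and 0.027. Of the siGFP arrays 2 of 4, and of the siESRP arrays 2 of 4, correlated best with their own number. These few values do not settle whether the arrays were paired. The median log2 difference of all rows was −0.02 as reported, −0.10 on the deposited scale and −0.11 after median scaling, and that of the adhesion genes 0.14, 0.05 and 0.04. With array weights ITGA10 passed (0.0459).

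Directions changed among 9 genes that did not pass. Without normalization and after median scaling the log2 differences were −0.43 and −0.45 for ITGA8, −0.024 and −0.040 for ITGB2, −0.23 and −0.25 for ITGB3, −0.15 and −0.17 for ITGB7, and −0.00088 and −0.018 for PXN. With 1 array left out they ran from −0.14 to 0.010 for ITGA11, −0.15 to 0.039 for ITGA7, −0.16 to 0.50 for ITGA8, −0.12 to 0.027 for ITGA9, −0.13 to 0.11 for ITGB3, −0.014 to 0.033 for PXN and −0.052 to 0.026 for TNS1. The difference of ITGA5 relative to ITGB1 was −0.82 on both other scales. The cause of these changes was not tested. Dim signal limits what can be said of ITGA7 to ITGA11, ITGB3 and ITGB7.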
